A study of Arabidopsis thaliana with 27 samples.

Results

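The comparison described here asked which transcripts changed differently between 3 and 24 hours after sowing (HAS) in 2 compartments of dormant (D) seeds of the Arabidopsis thaliana accession Cvi. The interaction of a gene is its log2 change from 3 to 24 HAS in the micropylar and chalazal endosperm (MCE) minus its log2 change over the same interval in the radicle and hypocotyl (RAD), so that a positive value means a more positive change in the MCE. It rests on 12 of the 27 arrays of the series, with 3 arrays in each of the groups D MCE at 3 HAS, D MCE at 24 HAS, D RAD at 3 HAS and D RAD at 24 HAS. Of 21313 genes on the array, 8811 had a mean above 5 in all 4 groups and 12502 did not. The level of 5 on the log2 scale is where the study placed the border between noise and signal, and the account below is foremost about the 8811 genes, for which a group near the noise cannot hide a change.

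All 4 groups were seeds of the accession Cvi, with no mutation or transgene named, freshly harvested and not after-ripened, from plants grown in 3 replicates, and were imbibed in water. No treatment other than imbibition and its duration set the groups apart within a compartment. Each RNA came from dissected seed parts in bulk, so that a lower value from fewer cells of a type cannot be told apart from a lower value from less RNA per cell. The RNA of the MCE and of the dry seeds was isolated by a borate-based method and that of the RAD with a column kit, so that the difference between compartments at 1 time cannot be told apart from the isolation method. The change over time within each compartment was measured with 1 method throughout.

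The endosperm is the living cell layer that encloses the Arabidopsis embryo, and its micropylar part lies over the radicle tip, where it must weaken before the radicle can emerge. The radicle and lower hypocotyl are the part of the embryo whose cells elongate when germination completes. In a dormant seed both compartments take up water and remodel their stored transcripts without germination following, with abscisic acid (ABA) holding germination back and gibberellin (GA) promoting it.

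Array medians rose in parallel, from between 4.65 and 4.68 to between 4.85 and 4.901 in the D MCE and from between 4.64 and 4.66 to between 4.81 and 4.85 in the D RAD. The median SD between the 3 arrays of a group was 0.185 over the 8811 genes, and the median standard error of the interaction was 0.215. The values of the D MCE arrays at 3 and 7 HAS and of the dry seeds were deposited with 7 decimals and those of the other arrays with 9, and the part of that difference in the results was not tested. EPR1, the extensin-like gene of the endosperm, stood at 13.70 ± 0.04 and 13.78 ± 0.06 (SD, n = 3) in the D MCE against 7.27 ± 0.28 and 6.44 ± 0.49 in the D RAD, in the direction of the labels. The other 2 endosperm markers were near the noise at 3 HAS, the mannanase genes MAN6 with means of 4.93 (MCE) and 3.99 (RAD), and MAN7, against the labels, with 4.32 and 4.87. At 24 HAS they were at 4.14 and 3.70 for MAN6 and at 8.63 and 6.51 for MAN7. Of 10 genes taken as markers of the radicle and hypocotyl, only SCR exceeded a mean of 5 in the MCE, at both times, whereas 2 did in the D RAD at 3 HAS and 5 at 24 HAS. SCR, a root patterning factor, went against its list, with a rise from 6.59 to 8.04 in the MCE beside 8.17 and 7.70 in the RAD and an interaction of 1.92.

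The changes in the compartments were correlated across genes. Across the 8811 genes the change in the MCE and that in the RAD, which have no array in common, correlated with a Pearson r of 0.789 and a Spearman rho of 0.786, given as a description because genes are not independent replicates. A gene is said here to have risen or fallen in a compartment where its change was at least 2-fold with an adjusted p under 0.05. By that rule 760 genes rose (8.63%) and 582 fell (6.61%) in the MCE, and 908 rose (10.3%) and 804 fell (9.12%) in the RAD. Of these, 469 rose in both, 61.7% of those that rose in the MCE and 51.7% of those that rose in the RAD, and 377 fell in both, 64.8% and 46.9% of the respective lists. Opposite courses were rare, with 3 genes that rose in the MCE and fell in the RAD and 0 that did the converse.

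In the direct comparison, 1406 of the 8811 genes had an interaction with an adjusted p under 0.05, which is meant below by passing the test. The change was more positive in the MCE for 750 (8.51%) and more positive in the RAD for 656 (7.45%). At least 3-fold interactions were found for 86 genes, 67 more positive in the MCE (0.76%) and 19 more positive in the RAD (0.216%). Among all 21313 genes the test was passed by 1190 (5.58%) and 1301 (6.1%), and the 3-fold limit by 183 (0.859%) and 140 (0.657%). The share of 3-fold genes that were more positive in the MCE was thus 77.9% above the level of 5 and 56.7% over all genes, so this share depends on the level. Just inside the level lay AT5G54980 with a lowest group mean of 5.02 and AT5G27860 with 5.02, and just outside it the trehalose phosphatase gene TPPJ with 4.999 and AT4G25280 with 4.99.

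**Figure D1:**
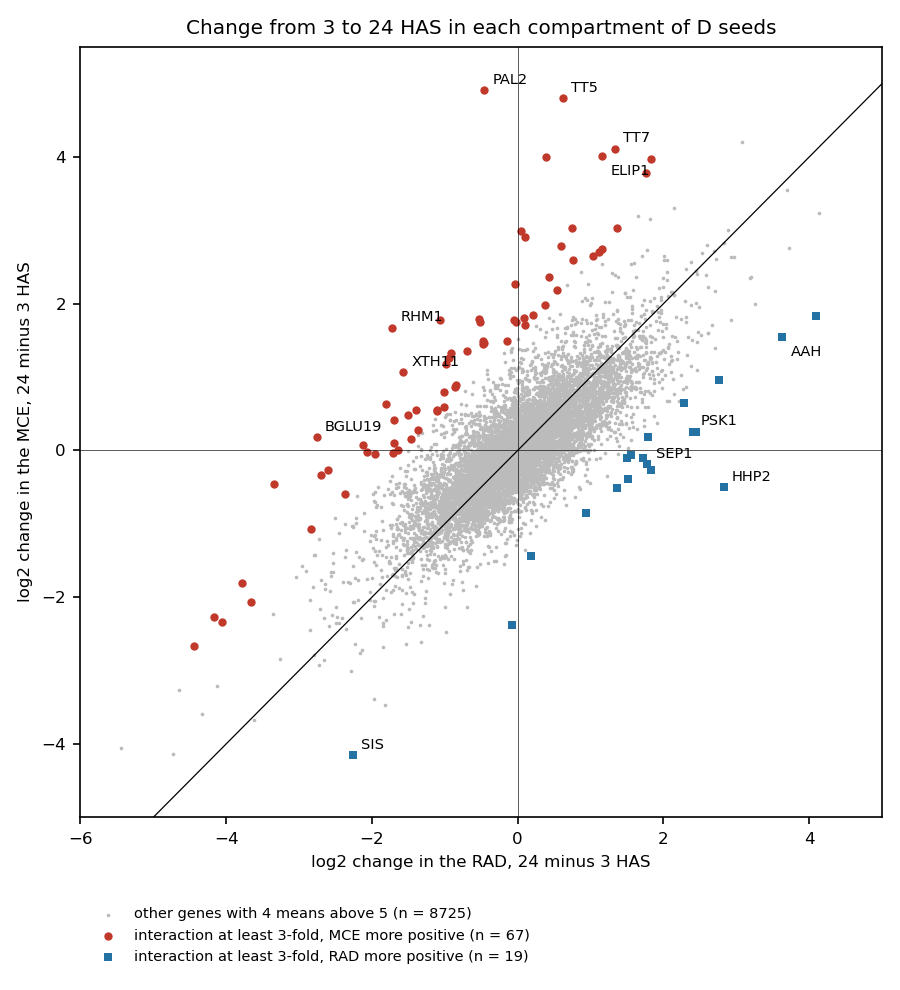
Log2 change from 3 to 24 HAS in the RAD (horizontal axis) and in the MCE (vertical axis) for the 8811 genes with 4 group means above 5, each point a gene and the line equal change. The 67 red genes lie above the line, many of them with a rise in the MCE or a fall in the RAD alone, and the 19 blue genes lie below it, mostly with a rise in the RAD alone.

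The 86 genes reached their interaction by different routes. Of the 67 that were more positive in the MCE, 27 rose in the MCE with no 2-fold change in the RAD, 20 fell in the RAD with no 2-fold change in the MCE, 8 rose in both, 6 fell in both, 3 rose in the MCE and fell in the RAD, and 3 met neither rule. Of the 19 that were more positive in the RAD, 13 rose in the RAD alone, 2 rose in both, 2 fell in the MCE alone, 1 fell in both and 1 met neither rule. Of all 8811 genes, 3.27% rose in the MCE alone, 4.81% fell in the RAD alone, 5.32% rose in both and 4.28% fell in both. A rise in the RAD alone was found for 4.98% of all and a fall in the MCE alone for 2.33%. A rise in the MCE with a fall in the RAD was found for 0.034%, and 75% met neither rule. The interaction is made of these changes, so the counts are a description. The change was larger in the MCE than in the RAD in 37 of the 67 and in 3 of the 19, against 43.6% of all. The largest interactions named below kept their sign for every choice of 1 array per group, which the rule for naming them required.

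Flavonoid synthesis held the largest interactions. This pathway turns phenylalanine into flavonols and their glycosides, which are known as antioxidants, and another branch leads to the pigments of the seed coat. Of 17 genes of the list on the array, 7 had all 4 means above 5, and all 7 passed the test with a more positive change in the MCE and at least 3-fold, against 0.76% of the 8811 genes. The median interaction was 2.44 against 0.002 over the 8811 genes. The lists here and below were chosen with earlier results of these data known, so their counts beside these shares are a description.

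PAL2 encodes phenylalanine ammonia-lyase, the entry enzyme of the phenylpropanoid pathway. Its MCE arrays read 5.41, 5.13 and 5.08 at 3 HAS and 9.65, 10.53 and 10.18 at 24 HAS, against 6.71, 7.1 and 7.11 and then 6.45, 6.54 and 6.54 in the RAD. Every MCE array at 24 HAS thus lay above every other array of the 4 groups, and every MCE array at 3 HAS below them. PAL2 rose 30.1-fold in the MCE, its change in the RAD was -0.46, and the interaction was 5.37 ± 0.30 (SE, adjusted p = 5.75e-12).

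TT5, chalcone isomerase, followed the same course from a different start. Its arrays read 6.88, 6.66 and 6.67 and then 11.30, 11.80 and 11.53 in the MCE, and 5.20, 5.42 and 4.96 and then 5.99, 6.04 and 5.41 in the RAD, where the times overlapped. The rise in the MCE was 27.9-fold and the interaction 4.18 ± 0.38 (adjusted p = 2.63e-08). TT7, the flavonoid 3'-hydroxylase, went from 7.81, 8.27 and 8.48 to 12.15, 12.48 and 12.28 in the MCE and from 6.16, 6.72 and 6.59 to 7.91, 7.94 and 7.62 in the RAD. The times did not overlap in either compartment, and both changes passed the test, with a rise of 17.3-fold in the MCE and of 2.52-fold in the RAD. The other 4 members with means above 5 had smaller interactions. Cinnamate 4-hydroxylase (C4H) had 2.31, the coumarate ligase gene 4CL1 2.32 and flavanone 3-hydroxylase (F3H), the highest of the 7 at 12.90 ± 0.22 in the D MCE at 24 HAS, 1.84. UGT78D2, a flavonol and anthocyanin glucosyltransferase, differed from the rest of the list in its route, since its change in the MCE was 0.63 while it fell by 1.81 in the RAD, for an interaction of 2.44.

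The 10 members of the list with a mean at or below 5 could not meet the rule, and 6 of them passed the test in the same direction. Chalcone synthase (TT4) moved from 6.89 to 13.13 in the MCE and from 4.30 to 5.96 in the RAD, flavonol synthase (FLS1) from 4.17 to 10.63 and from 3.31 to 4.04, and PAL1 from 4.22 to 10.04 and from 4.73 to 5.13. The flavonol regulator MYB12 moved from 5.72 to 8.95 in the MCE and from 4.14 to 4.84 in the RAD. Their interactions were 4.58 for TT4, 5.73 for FLS1, 5.43 for PAL1 and 2.53 for MYB12, and since a mean near the noise is compressed these sizes are less certain than those above the level. Dihydroflavonol reductase (DFR), the step toward anthocyanins and proanthocyanidins, stayed between 3.19 and 3.42 in all 4 groups.

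Next come RHM1, among the 12 largest, and 4 further 3-fold genes that were picked after their values were seen and are given as single genes. RHM1, a rhamnose synthase that provides the sugar for flavonol rhamnosides and pectin, measured 8.55, 8.10 and 8.46 and then 9.84, 10.34 and 9.96 in the MCE, and 7.53, 7.15 and 7.28 and then 5.38, 5.95 and 5.46 in the RAD. It rose 3.19-fold in one compartment and fell 3.3-fold in the other without overlap between times in either, for an interaction of 3.40 ± 0.28 (adjusted p = 6.77e-09). DTX35, known as the flower flavonoid transporter, had 1.64, chorismate mutase (CM1), which commits chorismate to phenylalanine and tyrosine, 1.83, and ferulate 5-hydroxylase (FAH1) of the sinapate branch 1.62. MYB32, a phenylpropanoid regulator, had 1.72 with a change of 0.86 in the MCE and of -0.86 in the RAD, neither of them 2-fold.

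ELIP1, also among the 12 largest, is followed here by 4 more single 3-fold genes picked after their values were seen. ELIP1, an early light-induced protein of the chloroplast, measured 6.26, 6.18 and 5.94 and then 9.61, 10.45 and 10.35 in the MCE, and 6.65, 7.27 and 7.3 and then 8.51, 8.17 and 8.03 in the RAD. It rose in both compartments, 16.1-fold in the MCE and 2.24-fold in the RAD, without overlap between times, and the interaction was 2.85 ± 0.52 (adjusted p = 0.000425). The HY5 homolog HYH, a bZIP factor of light signaling, had an interaction of 1.97 and SPA4, a repressor of light signaling that acts with COP1, one of 2.2. KAI2, the karrikin receptor, went from 6.38 to 9.42 in the MCE and from 8.21 to 8.96 in the RAD. By these means the compartment that was lower at 3 HAS was the higher one at 24 HAS, there by under 2-fold. KUF1, an F-box gene known to be induced through KAI2, went from 5.52 to 7.02 in the MCE and from 5.62 to 5.48 in the RAD, with an interaction of 1.64 against 2.29 for KAI2.

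The remaining genes among the 12 largest included several that the annotation used here gives no name. AT1G06000 read 6.34, 6.22 and 6.41 and then 10.26, 10.49 and 10.22 in the MCE, and 7.09, 7.08 and 7.3 and then 7.35, 7.72 and 7.58 in the RAD. Its order between compartments turned over, with the RAD higher at 3 HAS and the MCE higher at 24 HAS without overlap, and its interaction was 3.62 ± 0.22 (adjusted p = 2.28e-11). AT1G13930 turned over in the same way, from 5.62 ± 0.42 to 8.61 ± 0.03 in the MCE beside 6.71 ± 0.31 and 6.76 ± 0.28 in the RAD. ERD9, a glutathione S-transferase gene first found as responsive to dehydration, rose 7.51-fold in the MCE, from 5.68 ± 0.07 to 8.59 ± 0.63, beside 5.36 ± 0.12 and 5.45 ± 0.18 in the RAD. The interactions were 2.94 for AT1G13930 and 2.82 for ERD9.

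AT4G30470 and XTH11 were, with RHM1, the genes that rose in the MCE and fell in the RAD. XTH11, of the xyloglucan endotransglucosylase/hydrolases that rearrange cell wall xyloglucan, measured 10.42, 10.10 and 10.15 and then 10.97, 11.51 and 11.40 in the MCE, and 8.27, 7.83 and 7.98 and then 6.72, 6.39 and 6.25 in the RAD. It was higher in the MCE at both times and the distance grew from 2.2 to 4.84. AT4G30470 was at close levels in the compartments at 3 HAS, at 7.27 ± 0.27 and 7.36 ± 0.07, and stood at 9.05 ± 0.58 in the MCE and 6.29 ± 0.32 in the RAD at 24 HAS. Their interactions were 2.64 for XTH11 and 2.85 for AT4G30470.

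**Figure D2:**
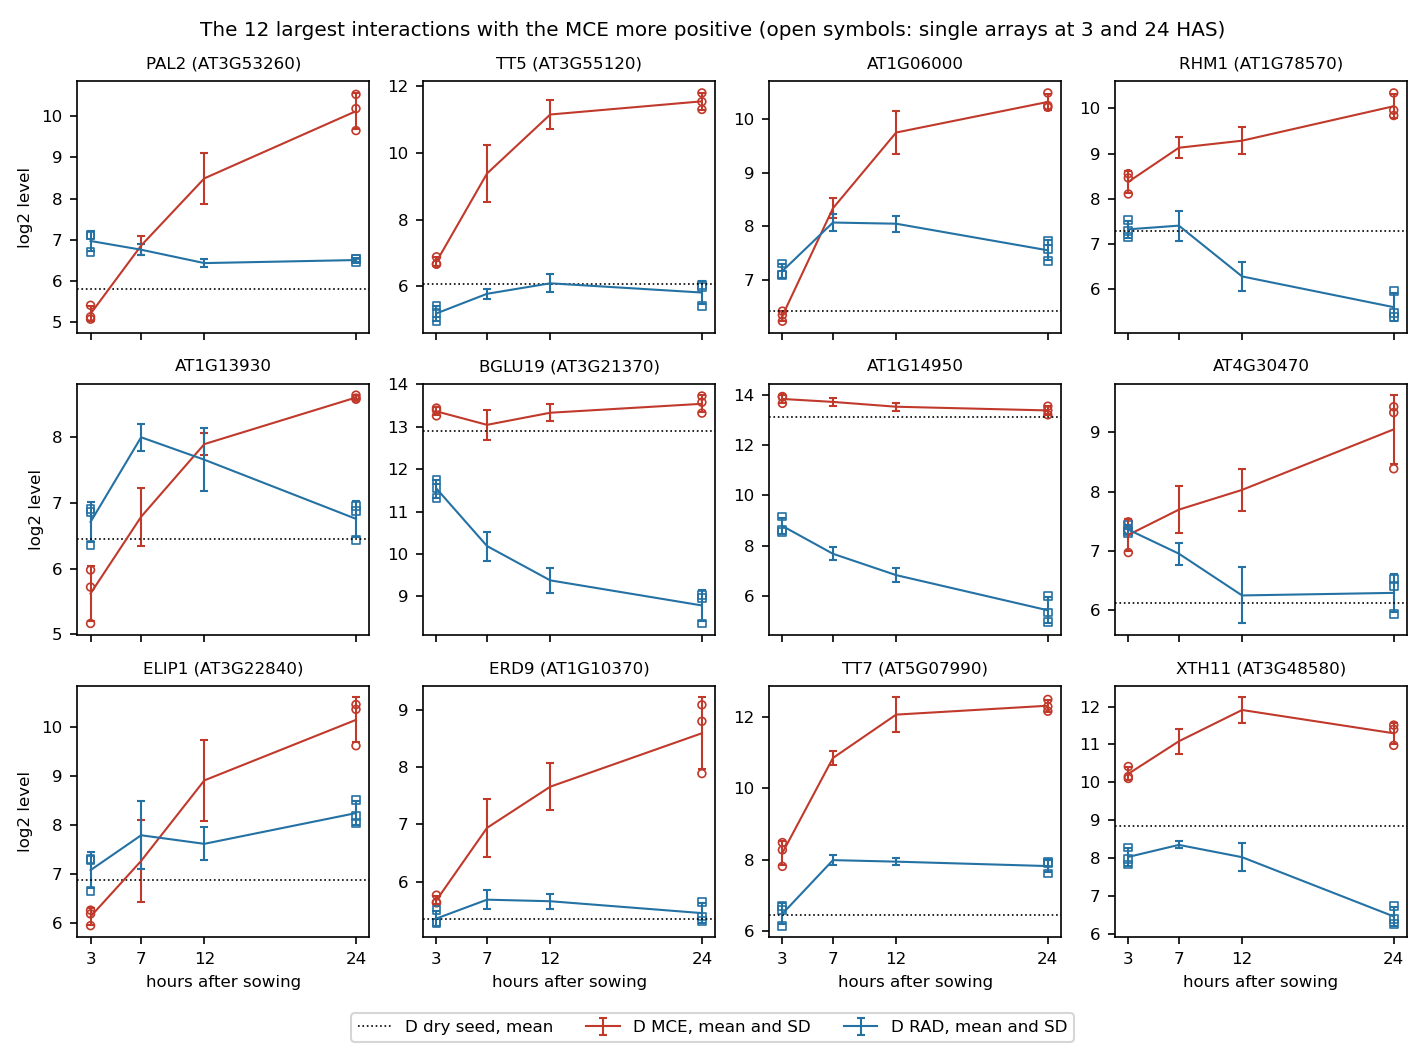
Log2 level over hours after sowing of the 12 genes with the largest interactions toward the MCE, with means and SD of 3 arrays per group (red, D MCE; blue, D RAD), single arrays at 3 and 24 HAS as open symbols and the dry seed mean as a dotted line. PAL2, TT5, AT1G06000 and TT7 climb in the MCE alone or mostly, BGLU19 and AT1G14950 stay near 13 in the MCE while they fall in the RAD, and the vertical axes differ between panels.

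A second route was a fall in the RAD with no 2-fold change in the MCE. BGLU19, a beta-glucosidase, measured 13.44, 13.26 and 13.39 and then 13.32, 13.58 and 13.73 in the MCE, where the times overlapped, and 11.75, 11.56 and 11.33 and then 9.04, 8.36 and 8.96 in the RAD. AT1G14950 stood at 13.65, 13.92 and 13.90 and then 13.20, 13.38 and 13.54 in the MCE, and at 8.56, 9.16 and 8.64 and then 5.36, 4.98 and 6.01 in the RAD. Its MCE arrays at 24 HAS all lay below those at 3 HAS, a change of -0.46, and values this high can be compressed. The falls in the RAD were 6.76-fold and 10.1-fold, and the interactions were 2.94 ± 0.27 for BGLU19 and 2.89 ± 0.28 for AT1G14950. NSP2, a nitrile-specifier protein of glucosinolate breakdown, had the same form, with 13.82 and 13.48 in the MCE and 8.46 and 5.77 in the RAD and an interaction of 2.36. These genes were high in the dry seed, at 12.90 for BGLU19, 13.12 for AT1G14950 and 12.78 for NSP2. The endosperm marker EPR1 had a change of -0.83 in the RAD, a change of 0.08 in the MCE and an interaction of 0.905 (adjusted p = 0.0145), a call that was lost without replicate 1 or replicate 2 of the D RAD at 24 HAS and with the 12 arrays of the 4 groups alone. The log2 of the summed linear levels of the 3 endosperm markers lay between 7.40 and 7.79 in the RAD at 3 HAS and between 7.40 and 7.77 at 24 HAS, and in the MCE between 13.67 and 13.75 and between 13.75 and 13.91. In the RAD this sum joins the lower EPR1 at 24 HAS with MAN7, which rose there from 4.87 to 6.51, while MAN6 had an interaction of -0.51 that did not pass the test. The part in these results of endosperm material in the RAD samples was not tested.

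The same route was taken by genes that were about as high in the RAD as in the MCE at 3 HAS. The storage albumin gene SESA2 went from 11.84 to 12.40 in the MCE and from 11.75 to 10.35 in the RAD, the xyloglucan gene XTH25 from 12.09 to 12.51 beside a fall from 12.58 to 10.88, and AT5G54000 stayed at 10.71 in the MCE and fell from 10.57 to 8.94. The 3-fold genes that fell in both compartments fell further in the RAD. Nitrite reductase (NIR1), which reduces nitrite to ammonium in plastids, fell by 1.81 in the MCE and by 3.78 in the RAD, and BT4, a BTB and TAZ domain gene, by 2.07 and 3.66.

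Among heat shock proteins 5 of 10 members fell in the RAD alone, 2 (HSP101 and HSP90.1) fell in both compartments and 3 fell in neither. These chaperones and their heat shock factors protect proteins under heat and are stored as transcripts in mature seeds. Of 15 genes on the array 10 had all means above 5, and 7 of these passed the test, all more positive in the MCE, against 8.51% of the 8811 genes. In the MCE 2 fell, against 6.61% of all, and in the RAD 7, against 9.12%. The median interaction was 1.03 beside median changes of -0.31 in the MCE and -1.39 in the RAD. Hsp70b, a cytosolic HSP70, went from 9.46 ± 0.36 to 9.20 ± 0.51 in the MCE and from 10.53 ± 0.07 to 7.92 ± 0.39 in the RAD, an interaction of 2.35 ± 0.43 (adjusted p = 0.000452). Lesser values were 1.55 for the small heat shock protein AT1G53540 and 1.23 for HSP90.1. The mitochondrial small heat shock gene HSP23.6-MITO had 1.81 with an adjusted p of 0.0397, which was lost in 7 of the 12 fits that left out 1 array. The call of AT1G53540 was lost in 2 of those fits and that of HSP90.1 in 1, without replicate 3 of the D RAD at 24 HAS.

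Genes of the hypoxia response, which serve fermentation and oxygen sensing, mostly went down in both compartments, where 11 of 17 fell in the MCE, against 6.61% of the 8811 genes, and 15 of 17 in the RAD, against 9.12%. Over the MCE arrays their median change was -1.265 and over the RAD arrays -1.714, taken over the 17 of 29 genes with means above 5, and 6 passed the test, all more positive in the MCE, against 8.51% of all, with a median interaction of 0.74. The calls of ETR2 and PP2-A11 were each lost in 4 of the 12 fits without 1 array. LBD41, a hypoxia-induced transcription factor, went from 11.83 to 8.56 in the MCE and from 11.85 to 7.19 in the RAD, and AT4G10270 from 10.05 to 5.99 and from 11.50 to 6.05, with interactions of 1.39 and 1.38. After another round of quantile normalization the median of the list was 0.577. PDC2, pyruvate decarboxylase, did not take part in the fall in the MCE to that extent, with changes of -0.32 there and -1.16 in the RAD.

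Among the hormone lists that of GA had the most members past the test. Of 11 genes with means above 5, 6 were more positive in the MCE, against 8.51% of the 8811 genes, and 1, the ent-kaurenoic acid oxidase CYP88A3 with -0.77, in the RAD, against 7.45%. SCL3, a GRAS factor that promotes GA signaling, fell by 1.72 in the MCE and by 3.05 in the RAD, from 8.48 to 6.76 and from 9.74 to 6.69. KAO2, the second ent-kaurenoic acid oxidase, changed by -0.06 in the MCE and fell by 1.25 in the RAD, so that paralogs of the same step had interactions of opposite sign, 1.19 for KAO2 and -0.77 for CYP88A3. The DELLA repressor GAI rose from 7.13 to 8.91 in the MCE and went from 9.21 to 9.96 in the RAD, and SLY1, the F-box protein that targets DELLA proteins, had an interaction of 1.14. The median of these 11 genes was 0.69. Of the 18 members with a mean at or below 5, 1 passed toward the MCE and 3 toward the RAD. Over all genes at or below 5 these shares were 3.52% and 5.16%.

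Of the 7 ABA synthesis, breakdown and transport genes with means above 5, 2 passed the test, both toward the MCE, against 8.51% of all. NCED5, of the rate-limiting step of ABA synthesis, rose from 7.07 to 8.62 in the MCE and went from 7.59 to 7.96 in the RAD, with an interaction of 1.17 (adjusted p = 0.000617). CYP707A2, the ABA 8'-hydroxylase that breaks ABA down in imbibed seeds, changed by -0.30 in the MCE and fell by 1.26 in the RAD, with an interaction of 0.96. A gene of synthesis and a gene of breakdown thus had interactions of the same sign. In ABA signaling 2 of 19 genes passed toward the MCE, against 8.51% of all, and 1 toward the RAD, against 7.45%. These counts lie near the shares of all genes, and the other 16 did not pass. Those that did were the receptors PYL5 with 0.92, PYL2 with 0.78, a call lost in 7 of the fits without 1 array, and PYL4 with -1.43. PYL4 rose from 5.53 to 7.79 in the RAD beside 8.01 and 8.85 in the MCE.

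The ethylene list had 4 of 11 genes past the test, all more positive in the MCE, against 8.51% of the 8811 genes, with the receptor ETR2 at 1.38 and the signaling genes EIN2 at 0.77 and CTR1 at 0.63 and the synthesis gene ACS2 at 0.68. All of these calls were lost in 4 or more of the 12 fits that left out 1 array. Lipid mobilization, the breakdown of storage oil through beta-oxidation and the glyoxylate cycle, had 4 of 16 past the test, all more positive in the MCE, against the same 8.51%, and a median of 0.27. The beta-oxidation genes ACX2, with 0.80, and LACS7, with 0.78, and malate synthase (MLS), with 0.64, led it. Of 13 storage protein and oleosin genes 3 passed toward the MCE, against 8.51% of all, and 1 toward the RAD, against 7.45%. The other 9 did not pass the test. The cruciferin CRU2 was the 1 toward the RAD, with a fall by 1.04 in the MCE and by 0.41 in the RAD and an interaction of -0.63. The call of CRU3 toward the MCE (0.47) was lost in 4 of the 12 fits without 1 array and under 1 other alternative. All 13 had means above 5 in all 4 groups, and the highest was CRU3, at 14.20 and 14.22 in the D RAD at 3 and 24 HAS. Values this high can be compressed, and the part of that in these interactions was not tested.

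**Figure D3:**
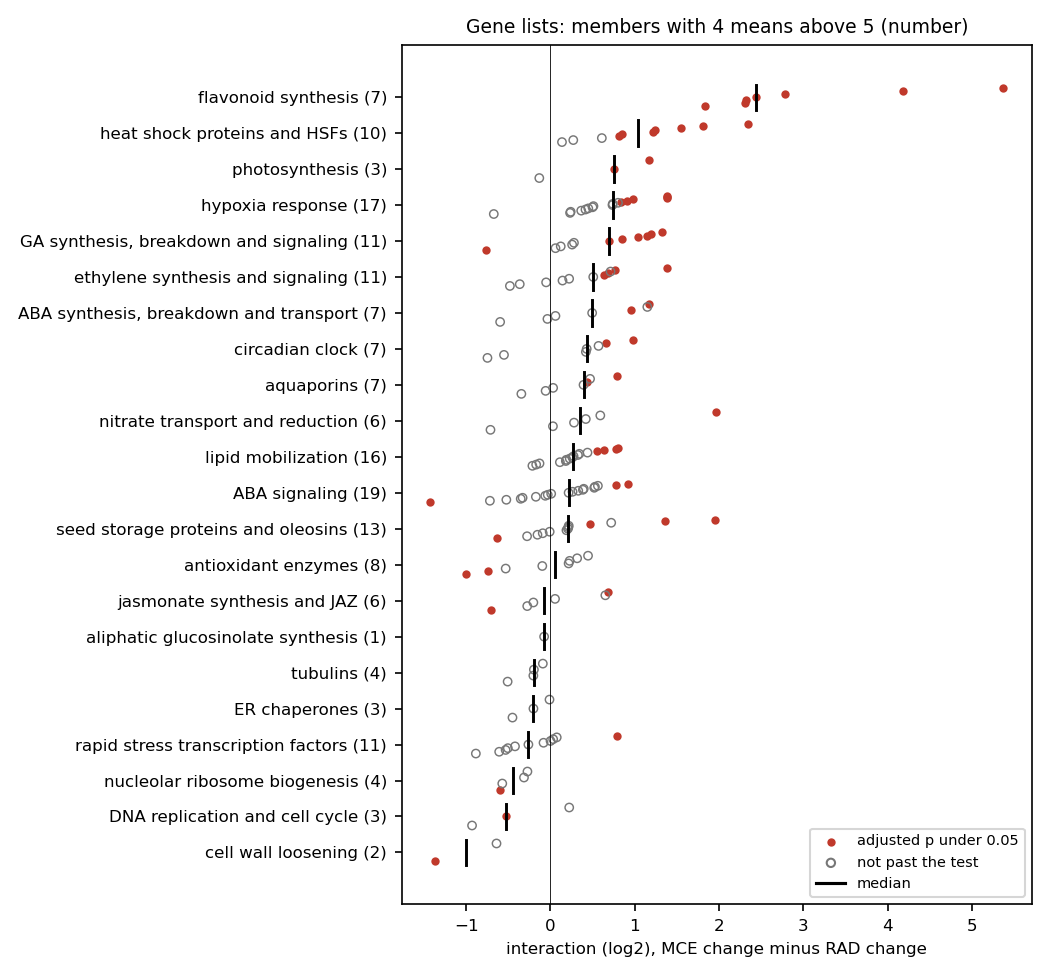
Interaction (log2, horizontal axis) of each member with 4 means above 5 in the gene lists (number of members in brackets), filled red where the adjusted p is under 0.05, with the list median as a black bar. Flavonoid synthesis stands highest with its 7 members between 1.84 and 5.37, and cell wall loosening lowest with 2 members.

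The other lists had medians between -1.003 and 0.755 and at most 2 members past the test, to be read against 8.51% of the 8811 genes toward the MCE and 7.45% toward the RAD. These were 2 of 3 photosynthesis genes, 2 of 7 aquaporins and 2 of 7 clock genes toward the MCE, 2 of 8 antioxidant enzymes toward the RAD, and 1 of 6 nitrate genes, which was NIR1. The call of the aquaporin TIP3;1 was lost in 7 of the 12 fits without 1 array and under 3 other alternatives, and that of the photosystem gene PSBP-1 in 1 fit and under 1 other. Of 6 jasmonate genes JAR1 passed toward the MCE and JAZ3 toward the RAD, calls that were lost in 5 and 10 of the 12 fits without 1 array, and of 11 rapid stress transcription factors DREB2A passed with 0.79. Toward the RAD, 1 of 4 nucleolar genes (FIB1), 1 of 3 DNA replication genes (RNR2A) and 1 of 2 cell wall genes (EXPA20, with -1.37) passed, and 0 of 4 tubulins, 3 endoplasmic reticulum chaperones and 1 glucosinolate gene did. TUA1 had the largest value of those tubulins with -0.51 (adjusted p = 0.147). No auxin gene had 4 means above 5.

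The largest interaction toward the RAD was that of HHP2, a heptahelical transmembrane protein of the family related to animal progesterone and adiponectin receptors. HHP2 measured 6.0, 6.26 and 5.54 and then 8.56, 8.87 and 8.85 in the RAD, and 6.6, 6.99 and 6.31 and then 5.93, 6.10 and 6.36 in the MCE. The RAD arrays at 24 HAS lay above all others, while the times overlapped in the MCE, and the interaction was -3.33 ± 0.29 (adjusted p = 1.54e-08). Its relative HHP3 also rose in the RAD alone, from 5.55 to 7.33 beside 5.5 and 5.68 in the MCE, with an interaction of -1.60.

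Several of the genes toward the RAD started lower there and reached the level of the MCE. PSK1, the precursor of the growth-promoting sulfated peptide phytosulfokine, measured 8.14, 7.3 and 7.88 and then 10.05, 10.21 and 10.25 in the RAD, beside 9.26, 9.38 and 9.69 and then 9.52, 9.45 and 10.13 in the MCE. AT1G75800 measured 6.78, 6.42 and 6.99 and then 9.21, 9.14 and 9.17 in the RAD, beside 9.35, 9.07 and 8.93 and then 9.41, 9.36 and 9.33 in the MCE. Both rose in the RAD without overlap, 5.28-fold and 5.44-fold, and at 24 HAS the difference between compartments was -0.47 for PSK1 and 0.19 for AT1G75800, under 2-fold for each. The interactions were -2.14 ± 0.32 and -2.19 ± 0.19.

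AT5G20950 and AAH, allantoate amidohydrolase, which releases ammonium from the purine breakdown product allantoate, rose in both compartments and more in the RAD. AAH measured 4.66, 5.25 and 5.45 and then 9.12, 8.32 and 8.81 in the RAD, a rise of 12.4-fold, and 7.11, 7.03 and 6.65 and then 7.97, 8.55 and 8.92 in the MCE, a rise of 2.92-fold. AT5G20950 rose 17.1-fold in the RAD, from 5.26 ± 0.17 to 9.35 ± 0.27, and 3.57-fold in the MCE, from 6.81 ± 0.06 to 8.65 ± 0.78. Their interactions were -2.08 for AAH and -2.26 for AT5G20950.

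SEP1, stress enhanced protein 1, a relative of the light-harvesting proteins, had close levels at 3 HAS and went apart. Its arrays read 6.42, 6.66 and 6.74 and then 8.36, 8.53 and 8.26 in the RAD, and 6.69, 6.73 and 6.49 and then 6.33, 6.54 and 6.5 in the MCE. It rose in the compartment in which ELIP1, of the same wider family, rose less, with interactions of -1.96 for SEP1 and 2.85 for ELIP1. The histone gene HTA7 of the H2A.W class went from 7.14 ± 0.19 to 8.50 ± 0.31 in the RAD beside 8.01 ± 0.08 and 7.50 ± 0.39 in the MCE. AT4G26400 went from 5.64 ± 0.12 to 7.46 ± 0.13 beside 6.85 ± 0.19 and 6.58 ± 0.08, AT1G56300 from 5.74 ± 0.48 to 7.26 ± 0.34 beside 7.46 ± 0.18 and 7.07 ± 0.42, and AT5G27860 from 5.02 ± 0.48 to 6.74 ± 0.35 beside 5.69 ± 0.16 and 5.59 ± 0.69.

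A fall in the MCE alone was the route of 2 of the 19 genes more positive in the RAD, against 2.33% of the 8811 genes. AT1G32860 measured 8.43, 8.13 and 8.04 and then 6.56, 5.5 and 5.38 in the MCE, beside 6.31, 5.94 and 6.59 and then 6.03, 6.47 and 6.12 in the RAD. It fell 5.23-fold in the MCE to the level of the RAD, with an interaction of -2.31 ± 0.46 (adjusted p = 0.00114). SIS, a serine-rich gene named for its induction by salt, fell in both, from 11.48 ± 0.28 to 7.33 ± 0.39 in the MCE and from 10.04 ± 0.25 to 7.78 ± 0.14 in the RAD, starting from 12.41 in the dry seed. The sulfate transporter SULTR1;2 changed by -0.85 in the MCE and by 0.93 in the RAD, with an interaction of -1.78. The ferritin gene FER1, of iron storage in plastids, went from 5.77 to 7.33 in the RAD beside 5.77 and 5.70 in the MCE, with an interaction of -1.62.

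**Figure D4:**
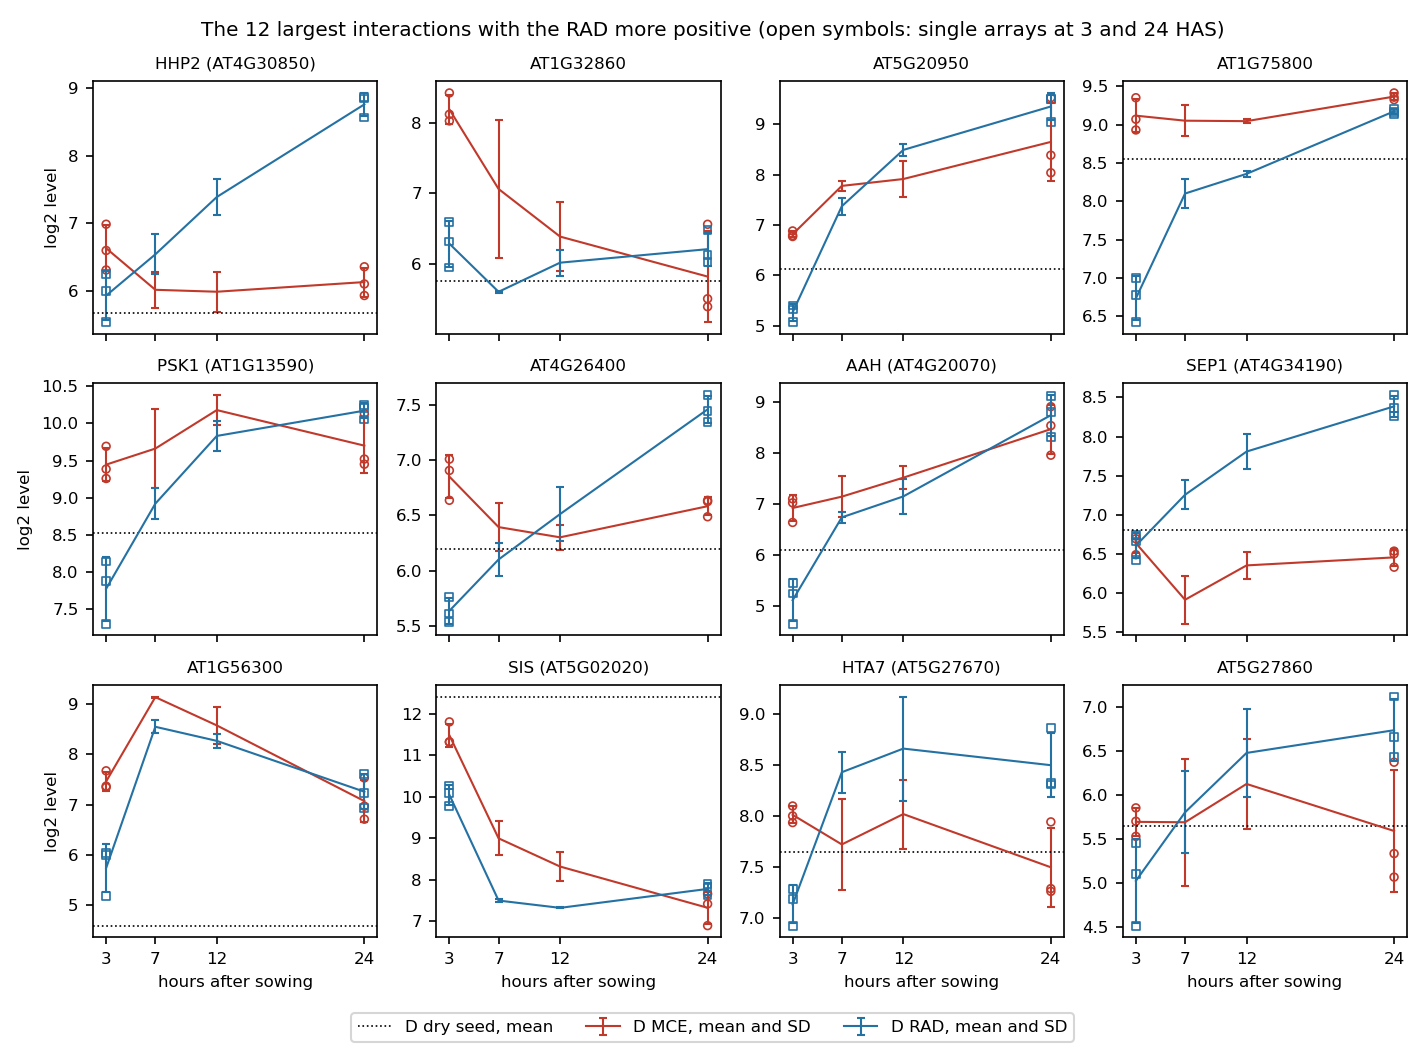
Log2 level over hours after sowing of the 12 genes with the largest interactions toward the RAD, with means and SD of 3 arrays per group (red, D MCE; blue, D RAD), single arrays at 3 and 24 HAS as open symbols and the dry seed mean as a dotted line. HHP2 and SEP1 part from similar starts, whereas in the panels of AT1G75800, PSK1 and AAH the RAD starts lower and meets the MCE, and the vertical axes differ between panels.

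The difference between the compartments at single times describes the same interactions from another side. At 3 HAS, the MCE exceeded the RAD at least 2-fold for 575 of the 8811 genes (6.53%) and the RAD the MCE for 514 (5.83%), and at 24 HAS these were 902 (10.2%) and 799 (9.07%). Of the 67 genes more positive in the MCE, 33 had no 2-fold difference at 3 HAS and were higher in the MCE at 24 HAS. This held for 5.36% of the 8811 genes. At both times 14 were higher in the MCE, against 4.85% of all. Another 15 were higher in the RAD at 3 HAS and no longer 2-fold different at 24 HAS, against 1.92%. In 3 the order turned over beyond 2-fold, against 0.034%. Of the 19 genes more positive in the RAD, 10 were higher in the MCE at 3 HAS and no longer 2-fold different at 24 HAS, against 1.68%. Another 8 came to be higher in the RAD, against 5.19%. The genes were chosen by the same end points, so these counts are a description. The compartments were further apart at 24 than at 3 HAS in 51 of the 67 (76.1%) and in 8 of the 19 (42.1%), against 60.2% of the 8811 genes.

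The arrays at 7 and 12 HAS did not enter the rule and show the intermediate course. The MCE minus RAD difference at 7 HAS lay between its values at 3 and 24 HAS in 62 of the 67 and 18 of the 19, and that at 12 HAS in 59 and 18, against 42.7% and 39.9% of the 8811 genes. It moved in order from 3 through 7 and 12 to 24 HAS in 47 of the 67 (70.1%) and 15 of the 19 (78.9%), against 15.1% of all. Genes with a large difference between the end points have more room between them, so these shares are a description. The median difference in the 67 genes was -0.339, 0.539, 1.445 and 1.834 at 3, 7, 12 and 24 HAS, so that most of the shift had taken place by 12 HAS. In the 19 genes it was 1.215, 0.405, -0.210 and -0.775. At 7 HAS the D MCE had reached 9.38 for TT5 and 10.84 for TT7 while PAL2 was at 6.86.

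**Figure D5:**
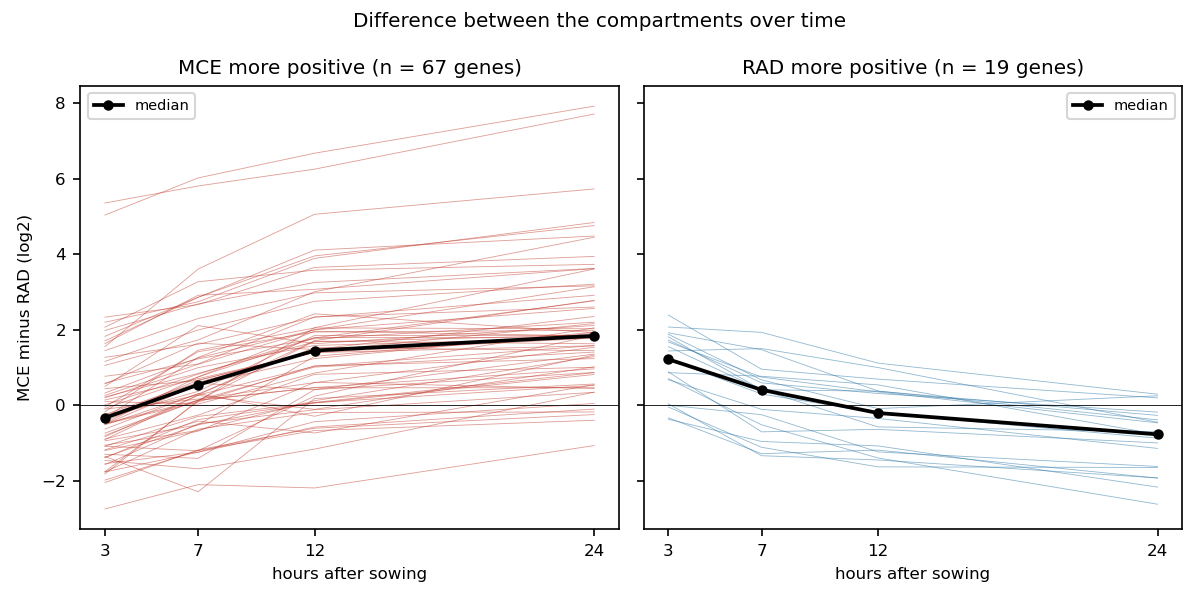
MCE minus RAD difference (log2) over hours after sowing, each thin line a gene and the black line the median, for the 67 genes more positive in the MCE (left) and the 19 more positive in the RAD (right). The medians run from -0.339 to 1.834 and from 1.215 to -0.775, and the steps between 3 and 12 HAS are larger than those between 12 and 24 HAS.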

How the data were processed

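RNA of dissected dormant Cvi seeds was hybridised to Affymetrix ATH1 arrays. The log2 values were made by the authors by robust multi-array averaging with a custom gene-level probe definition, together with further arrays not analysed here, and were used as deposited. They carry no counts, so the 3 arrays per group set the precision, and p-values measure the spread between those arrays. The sample titles do not say whether same-numbered arrays share plants. Moderated contrasts were fitted with limma 3.58.1 in R 4.3.3 over all 27 arrays in 9 groups, giving 18 residual and 7.246 prior degrees of freedom, and p-values were adjusted by the Benjamini-Hochberg method over all 21313 genes. Groups were taken from the sample titles. Tables and plots used Python 3.11.15, pandas 2.3.3 and matplotlib 3.10.9. Gene names came from a RefSeq table that matched 21205 genes. The fit was tested on simulated data.

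The members and the 23 gene lists were chosen with earlier results of these data known. Named were the 12 largest interactions in each direction among genes with 4 means above 5, at least 3-fold, past the test and of 1 sign for every choice of 1 array per group. Up to 4 members of each list, the compartment markers and the genes at the level of 5 were named as well. Other 3-fold genes and the members at or below 5 were named after their values were seen. Alternatives covered the arrays fitted, the replicate number as a block, scaling, variance model, the methods' t-test, the level and leaving out each array. Promoter sequences were not used here. A withheld item is not reported here. Same-numbered arrays did not deviate together, with correlations between -0.152 and 0.131 over 6 pairs of groups.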

Additional observations from a re-analysis of the deposited data

Results flagged for a closer look

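The following interactions are the 12 largest in each direction among genes with 4 means above 5 that met the naming rule. For each, the change from 3 to 24 HAS differed between the compartments by the limma test of the difference itself. More positive in the MCE were PAL2 (5.37), TT5 (4.18), AT1G06000 (3.62), RHM1 (3.40), AT1G13930 (2.94), BGLU19 (2.94), AT1G14950 (2.89), AT4G30470 (2.85), ELIP1 (2.85), ERD9 (2.82), TT7 (2.78) and XTH11 (2.64). More positive in the RAD were HHP2 (-3.33), AT1G32860 (-2.31), AT5G20950 (-2.26), AT1G75800 (-2.19), PSK1 (-2.14), AT4G26400 (-2.09), AAH (-2.08), SEP1 (-1.96), AT1G56300 (-1.91), SIS (-1.89), HTA7 (-1.88) and AT5G27860 (-1.82). Adjusted p-values ranged from 5.75e-12 for PAL2 to 0.0141 for AT5G27860.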

How the results depend on the processing

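The 24 largest interactions named above kept their direction and passed the test in all 504 refits, 21 for each gene. They were picked as large, past the test and of 1 sign for every choice of 1 array per group. That rule fixed their direction in advance in the refits that left out 1 array or weighted the arrays. The refits that changed the other groups fitted, the block or the variance model left the size of each interaction as it was. All of these refits say nothing about direction, which could change only where the arrays were scaled again. Of 134 named genes past the test, 18 lost it under 1 or more alternatives. Of the 86 genes at least 3-fold, those that lost the test were HSP23.6-MITO and AT1G01300. The first lost it without 7 of the 12 arrays and under 2 other alternatives, the second without 10 and under 1 other. By the methods' t-test, 1253 genes toward the MCE and 1252 toward the RAD passed unadjusted, and 429 and 352 after Benjamini-Hochberg adjustment. The 3-fold genes toward the RAD numbered 34 with all means above 4.5 and 8 with all above 6. With no level and means below 4 raised to 4, 173 and 123 genes were at least 3-fold and 1156 and 1229 passed the test. Leaving out 1 array gave 59 to 79 and 14 to 22 genes at least 3-fold, and 534 to 717 and 470 to 647 past the test. For the 86 genes at least 3-fold, membership of the 3-fold list moved more than their passing of the test did. Of the 86 genes, between 70 and 81 stayed on it without 1 array, and 78 with array weights. Centring the arrays shifted the median interaction of all genes by -0.033 and gave 671 and 772 genes past the test. With the replicate number as a block, 67 and 19 genes were at least 3-fold, the same 86 genes, and 770 and 676 passed the test, with no call among the 24 changed. Among the named genes, PLT2 (-0.73, adjusted p = 0.0304 in limma) came to pass with that block, and with the block within each compartment PLT2 and TUA1 (-0.51, adjusted p = 0.042) did. The block changed no other call of a named gene. SUR1, of glucosinolate synthesis and not past the test under any alternative, changed sign to 0.0478 with array weights, and without 1 array it ranged from -0.2109 to 0.0896. The medians of the hypoxia and aquaporin lists became 0.577 and 0.187 after quantile normalization. The cause of these shifts was not tested. Motifs in promoters were not run.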

Other observations

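Genes with a mean at or below 5 in 1 or more of the 4 groups, left aside above, held 116 interactions of at least 3-fold toward the MCE and 121 toward the RAD. Of the 7 tubulin genes at or below 5, 4 passed the test, all toward the RAD, where the 4 tubulins above 5 gave none. Of all 12502 genes at or below 5, 3.52% passed toward the MCE and 5.16% toward the RAD. TUA2, an alpha-tubulin of the microtubules that orient cell wall deposition, went from 4.57 to 9.38 in the RAD and from 4.89 to 6.62 in the MCE, and TUA6 from 3.63 to 9.18 and from 3.84 to 7.14. Their interactions were -3.09 for TUA2 and -2.26 for TUA6.

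Of 23 cell wall loosening genes at or below 5, 6 passed toward the RAD and 3 toward the MCE, against the same 5.16% and 3.52%, so that members of the same enzyme families stood on both sides. XTH15 went from 4.86 to 10.36 in the RAD and from 4.28 to 6.01 in the MCE, an interaction of -3.77, whereas XTH24 went from 3.12 to 4.95 in the RAD and from 3.77 to 8.84 in the MCE, an interaction of 3.24. The XTH24 arrays at 24 HAS were widely spread, with an SD of 2.07 in the RAD and 1.13 in the MCE, and the interaction had an SE of 0.80. The mannanase MAN7, which cleaves wall mannan, went from 4.32 to 8.63 in the MCE and from 4.87 to 6.51 in the RAD. The root epidermis factors MYB66 and GL2 and the root cap factor SMB were at or below 4.02 in the RAD at 3 HAS and at 5.86, 5.25 and 5.35 at 24 HAS, beside means of 3.05, 3.105 and 3.097 in the MCE at 24 HAS. The ABA transporter gene ABCG31 fell by 4.76 in the MCE, from 10.83 to 6.06, and by 1.38 in the RAD, from 4.58 to 3.201, where a mean near the noise can hide part of a fall.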
